A study of Homo sapiens and Mus musculus with 24 samples.

Results

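Bnip3l, Foxo3 and Xpo7 are genes of late red cell maturation, and the occupancy of their loci was read in mouse fetal liver from peaks of hemogen, the chromatin remodeller BRG1 and acetylated histone H3 lysine 27 (H3K27ac). The members were all peaks that overlapped 1 of 3 windows, given here in mm10 coordinates: chr14:66975000-67020000 around Bnip3l, chr10:42180000-42285000 around Foxo3 and chr14:70655000-70775000 around Xpo7. The windows measured 45.0, 105 and 120 kb. They held 462 peaks of the 564622 in the 12 peak lists, of which 72 lay at Bnip3l, 294 at Foxo3 and 96 at Xpo7.

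The lists came from livers of embryos at day 14.5, taken from hemogen knockout (KO) and wild-type (WT) mice. BRG1 was precipitated from KO and from WT livers with antibody ab110641. Hemogen was precipitated from livers labelled WT with the HA-tag antibody ab9110, and H3K27ac from WT livers with ab4729. Each of these 4 groups had 2 libraries, with 1 peak list per library and 1 list for the group, and no KO list of HA or H3K27ac in liver was analysed here. The labels give neither the HA-tagged allele nor the kind of knockout allele, nor do they tie a library to an animal, so every spread below is one between libraries and may be technical. Whole liver was used, and fewer cells of a type and less binding per cell cannot be told apart.

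In maturing red cells, BNIP3L (also called NIX) is a receptor on the outer mitochondrial membrane that hands mitochondria to autophagosomes, and mouse reticulocytes without it keep mitochondria they would normally clear. FOXO3 is a forkhead transcription factor that switches on antioxidant and late maturation genes in mouse erythroblasts. XPO7 is a nuclear export receptor that rises during terminal maturation, as the nucleus condenses and is then expelled. BRG1 supplies the ATPase motor with which BAF complexes shift nucleosomes at promoters and enhancers, and H3K27ac is found where these are active. Hemogen is a nuclear factor made mainly in blood-forming cells. All 3 genes are transcribed toward lower coordinates, so their 5′ ends lie toward the high-coordinate side of each window. A mouse annotation was not used here, and no peak is assigned to an exon, an intron or a promoter.

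In WT liver all 3 loci carried BRG1, hemogen and H3K27ac, while in KO liver both libraries called BRG1 together at 1 place alone, a block at Foxo3. No KO list held any BRG1 peak at Bnip3l. At Xpo7 the strongest BRG1 region of WT liver was in no KO list, and KO library 2 and the KO group list each held 1 peak, at 1 place far from it.

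**Figure D1:**
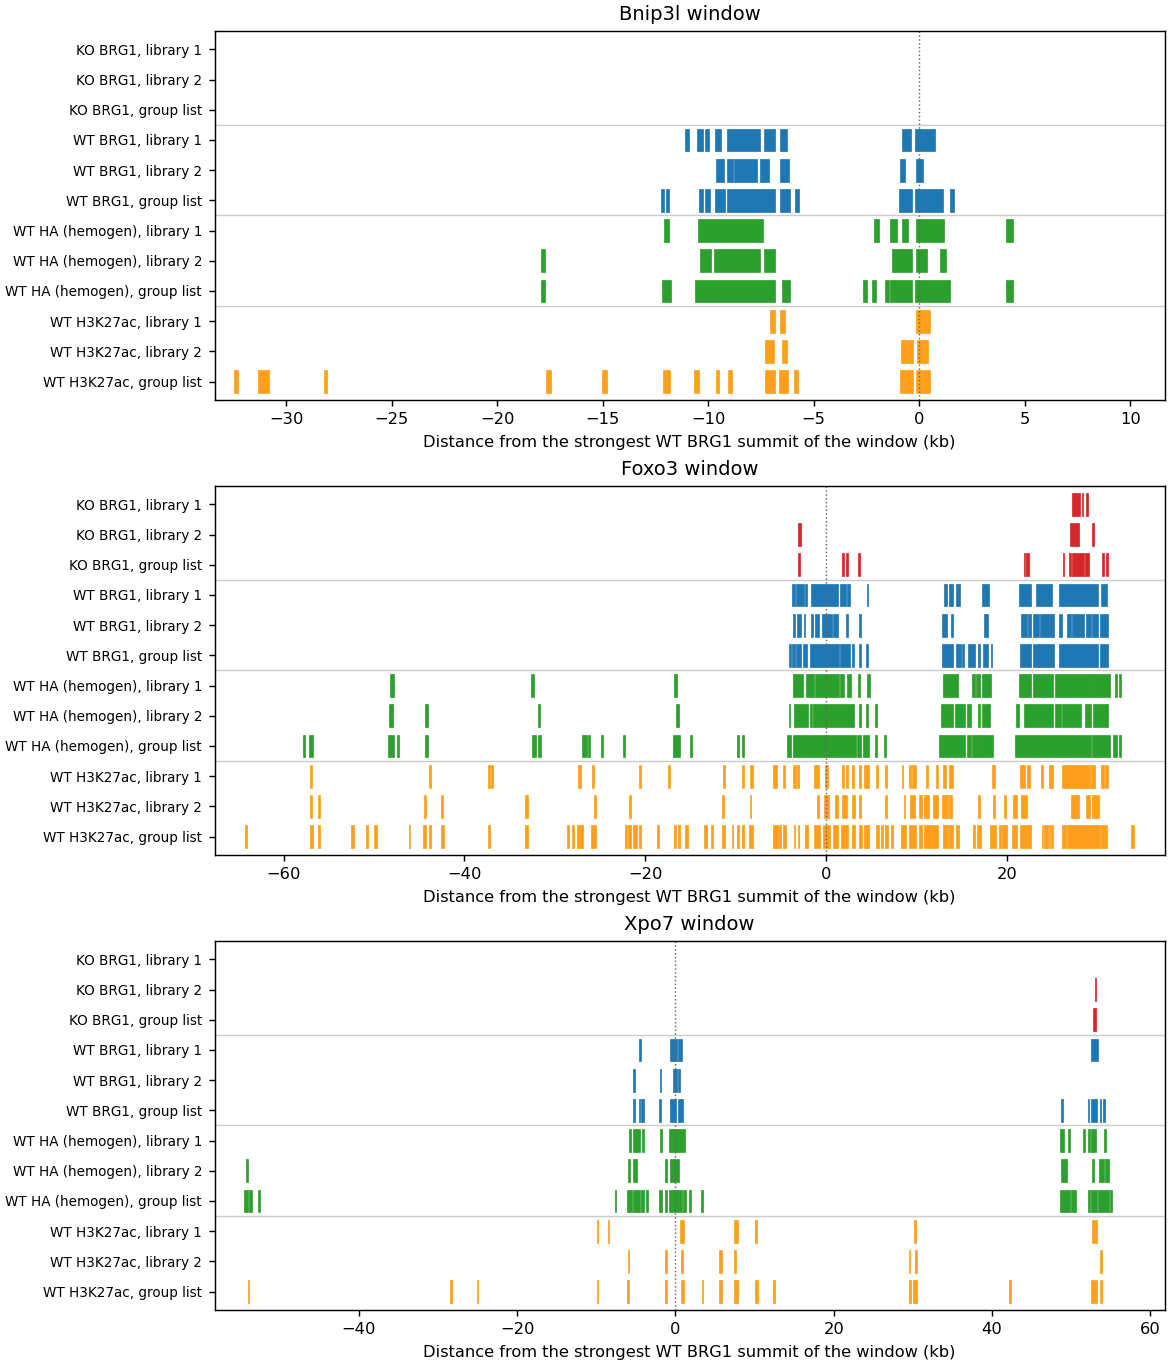
Peaks of the 12 lists in the 3 windows, as bars at their true width along the distance in kb from the strongest WT BRG1 summit of each window (dotted line). Rows run from KO BRG1 to WT BRG1, WT hemogen and WT H3K27ac, each with libraries 1 and 2 and the group list. The KO rows are empty at Bnip3l, hold 3 and 3 library peaks at Foxo3 and 0 and 1 at Xpo7.

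The first comparison set the number of BRG1 peaks per library in KO liver against WT liver. KO libraries 1 and 2 held 3 and 4 peaks in the 3 windows together, against 28 and 34 in WT libraries 1 and 2. The groups did not overlap, with 3.5 ± 0.707 peaks in KO libraries and 31 ± 4.24 in WT libraries (SD, n = 2 each), a difference of -27.5 peaks. The exact two-sided permutation test gave p = 0.333, and with 2 libraries a side no lower p can be had.

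At Bnip3l both KO libraries held 0 peaks, against 9 and 7 peaks in WT libraries. At Foxo3 the KO libraries held 3 and 3 peaks, against 15 and 23 in WT libraries. At Xpo7 the KO libraries held 0 and 1 peaks, against 4 and 4 in WT libraries. Each window thus had fewer peaks in both KO libraries than in either WT library.

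The whole BRG1 lists differed the same way. They held 3205 and 5592 peaks in KO libraries, against 26329 and 21165 in WT libraries, a WT to KO ratio of means of 5.40, where the 3 windows gave 8.86. The depth recovered from the authors' values, relative to WT library 1, was 0.406 and 0.342 in KO libraries, against 1.00 and 1.04 in WT libraries. The part of depth in the counts of the windows was not tested. When each BRG1 list was cut to its strongest 3205 peaks, the 3 windows held 3 and 2 peaks in KO libraries, against 5 and 3 in WT libraries, and the exact p was 0.667. At this length the groups met at 3 peaks, and the difference was -1.5 peaks. A cut can only lower the count of a list, so the fall in the WT libraries is no result by itself.

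**Figure D2:**
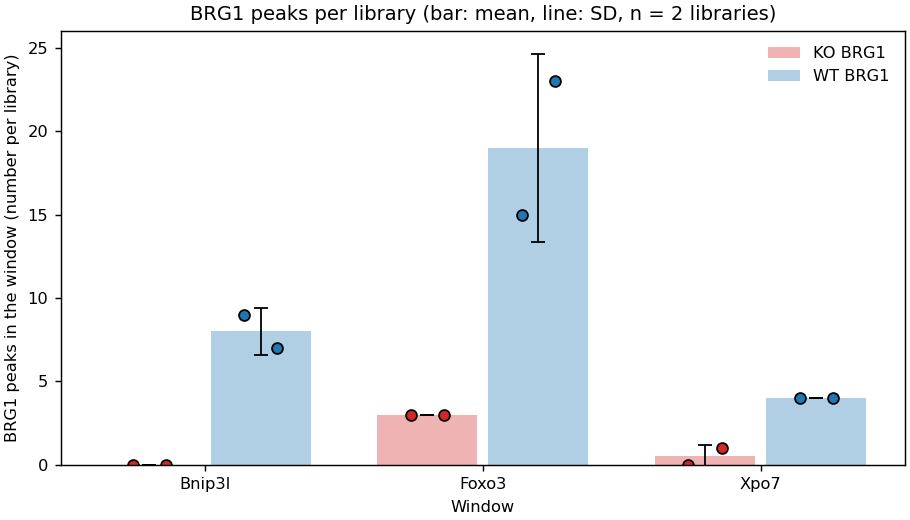
BRG1 peaks per library in each window (y axis, number of peaks), with KO libraries left of WT libraries. Bars are means, lines are SD over 2 libraries and points are libraries; KO libraries sit at 0 to 3 peaks and WT libraries at 4 to 23.

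Regions were defined as merged peaks of the 2 libraries of a group with at least 1 peak of each. WT BRG1 had 18 regions in the 3 windows, 5 at Bnip3l, 11 at Foxo3 and 2 at Xpo7, of 13213 in all. Of these 18, 5 overlapped a peak of any KO list (27.8%), beside 55.3% of all WT BRG1 regions. The exact Clopper-Pearson 95% interval was 9.69 to 53.5%. It holds counting error only, takes neighbouring regions as independent and is no test against the 55.3%. All 5 called regions lay at Foxo3, and the counts were 0 of 5 at Bnip3l, 5 of 11 at Foxo3 and 0 of 2 at Xpo7.

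By single list, KO library 1 called 1 of the 18 regions and KO library 2 called 2, beside 18.4% and 28.9% of all regions. Both KO libraries called the same 1 region of the 18, beside 12.1% of all. The KO group list called 5 of the 18, beside 53.6% of all. The group lists set directly against each other gave 7 of 43 WT peaks called in the KO group list, 0 of 11 at Bnip3l, 6 of 21 at Foxo3 and 1 of 11 at Xpo7, beside 24.6% of all WT group peaks. In each of these readings the share over the 3 windows together lay below the share over all regions or group peaks. It did not hold for every window, since the 6 of 21 at Foxo3 lay above the 24.6%. No test was run on these shares, since regions of 1 locus are not replicates.

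Strength here is the mean, over both library lists, of the percentile of a region's best −log10 p within its list. Over all WT BRG1 regions the called ones had a median strength of 74.2 and the uncalled ones 50.0. In the windows the 5 called regions had a median of 73.4 and the 13 uncalled ones 64.8, and both kinds spanned weak and strong regions. An H3K27ac region overlapped 3 of the 5 called and 7 of the 13 uncalled regions, where over all WT BRG1 regions it overlapped 81.7% of the called and 41.9% of the uncalled. Over all WT BRG1 regions, 70.7% of those with an H3K27ac region and 28.1% of those without were called in a KO list.

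**Figure D3:**
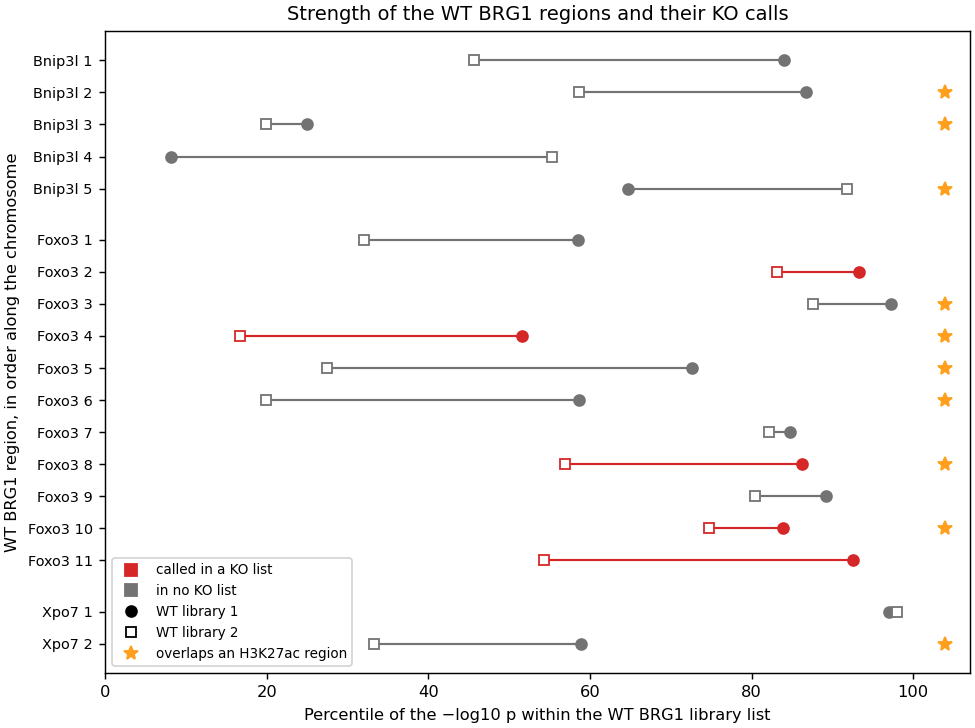
The 18 WT BRG1 regions of the 3 windows (rows, in order along the chromosome) by the percentile of their best −log10 p in WT library 1 (filled circle) and WT library 2 (open square). Red regions were called in a KO list and grey ones in none, and a star at the right edge, which is no percentile, marks overlap with an H3K27ac region. The first Xpo7 region lies highest, at 97.0 and 98.1, and is grey.

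Bnip3l, the mitophagy receptor, had 5 WT BRG1 regions in 2 separate groups, and no KO peak in any list. The strongest was chr14:67008158-67009122, with folds over local background of 4.67 and 6.44 in WT libraries 1 and 2 and a strength of 78.3. These folds are the authors' own and were used within a list only. Hemogen lay on the same spot, with folds of 6.10 and 6.35 and summits 14 and 1 bp from those of BRG1. The region also overlapped the strongest and widest H3K27ac region of the window, chr14:67008218-67008872, with folds of 5.28 and 5.63 and summits 8 bp apart. BRG1, hemogen and H3K27ac thus peaked close to each other. The nearest KO BRG1 peak of any list lay 62649 bp away, outside the window.

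The second group at Bnip3l held the strongest hemogen region of the window, chr14:66997879-67000989, with folds of 10.6 and 4.69 and a strength of 96.1. The BRG1 region chr14:66999276-67001543 on it had a strength of 72.7, and its summits lay 50 and 17 bp from those of hemogen. Its neighbour chr14:66998679-66999124 had a strength of 64.8. The 2 H3K27ac regions of this group, at chr14:67001088-67001525 and chr14:67001803-67002099, lay beside the hemogen region and did not overlap it. This separation holds for regions only. A hemogen peak of at least 1 list lay on each of the 2 H3K27ac regions, and peaks of the H3K27ac group list lay inside the hemogen region. The last 2 BRG1 regions were weak, with strengths of 22.4 at chr14:67001795-67002186 and 31.7 at chr14:67007457-67007976. The weaker of them was the only 1 of the 18 that overlapped no hemogen region, although a hemogen peak of at least 1 list lay on it. The remaining hemogen region, chr14:67007015-67008042, had a strength of 54.2.

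Foxo3, the stress-response transcription factor, had the most extended occupancy. Its 11 WT BRG1 regions lay in 3 blocks between chr10:42243812 and chr10:42278720, and all 11 overlapped a hemogen region. Hemogen lay over much of the first and the last block, with regions of 6726 bp at chr10:42243908-42250633 and 6085 bp at chr10:42272887-42278971. The first of these was the strongest hemogen region of the window, at 99.0, with folds of 10.0 and 9.91. Next came chr10:42260333-42262606 at 98.5 and chr10:42264771-42265796 at 94.1.

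The region that both KO libraries called was chr10:42273339-42277671 at Foxo3, the longest WT BRG1 region of the window. KO library 1 had 3 peaks in it, at chr10:42274806-42275631 with a fold of 4.46, at chr10:42275841-42276037 with 3.52 and at chr10:42276329-42276508 with 3.81. KO library 2 had 2 peaks in it, at chr10:42274494-42275494 with a fold of 4.53 and at chr10:42276923-42277152 with 4.69. The region lies near the high-coordinate end of the WT BRG1 peaks of the window and overlapped the strongest and widest H3K27ac region of all 3 loci, chr10:42273642-42276751. That H3K27ac region was 3110 bp wide, had folds of 5.64 and 5.92 and a strength of 97.6.

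The number of overlapping fragments at the highest summit of this region, recovered from the authors' values, was 43 and 36 in KO libraries, against 48 and 41 in WT libraries. These summits lay at different places, chr10:42275376 and chr10:42274855 in KO libraries and chr10:42277062 and chr10:42275929 in WT libraries. Divided by the relative depth of each library, these heights were 106 and 105 in KO libraries, against 48.0 and 39.4 in WT libraries. The 1594 WT BRG1 regions that both KO libraries called had median heights over depth of 81.3 and 87.8 in KO libraries, against 42.0 and 40.4 in WT libraries. A region enters this set only if both KO libraries called it, so its heights are a description of called regions. At the Foxo3 block the raw heights of KO and WT libraries thus overlapped, and over depth both KO libraries lay above both WT libraries, as the medians of the whole set did.

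The other 4 Foxo3 regions called in the KO had less support. The region chr10:42244218-42245486 had a WT strength of 88.2 and overlapped a peak of KO library 2, chr10:42244512-42244761 with a fold of 3.58, and 1 of the KO group list. The regions chr10:42249752-42250263, chr10:42268931-42270278 and chr10:42277912-42278720, with WT strengths of 34.1, 71.5 and 73.4, overlapped the KO group list only. The KO group list held 12 peaks at Foxo3, with folds of 3.13 to 5.50.

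The 6 Foxo3 regions in no KO list included the strongest of the window. This was chr10:42245887-42248951, with folds of 8.02 and 5.15, a strength of 92.4, hemogen folds of 10.0 and 9.91, and an H3K27ac region on it. The nearest KO peak lay 441 bp from its edge. The regions chr10:42270458-42272749 and chr10:42264870-42265543 followed with strengths of 84.8 and 83.4. At chr10:42264870-42265543 the hemogen summits lay 13 and 49 bp from those of BRG1, and no H3K27ac peak of any list overlapped it. The remaining 3 had strengths of 50.0, 45.2 and 39.3. Strong WT regions of Foxo3 thus stood on both sides, called and uncalled, within the same blocks.

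Xpo7, the nuclear export receptor, had the strongest BRG1 region of the 3 loci. It was chr14:70712484-70713380, with folds of 6.92 and 7.61 in WT libraries 1 and 2, percentiles of 97.0 and 98.1, and summits 25 bp apart. Its strength of 97.5 ranked 311 among the 13213 WT BRG1 regions. The strongest hemogen region of the 3 loci lay over it, chr14:70712351-70714399, with folds of 10.0 and 11.6, a strength of 99.7, and summits 17 and 80 bp from those of BRG1. No H3K27ac peak of any list overlapped the BRG1 region. The nearest H3K27ac summits lay 706 bp away in library 1, 846 bp in library 2 and 826 bp in the group list.

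No KO list held a peak on this region. The nearest was the single Xpo7 peak of the KO group list, chr14:70765931-70766381, 52550 bp away with a fold of 3.15. Within it KO library 2 called its single Xpo7 peak, chr14:70766187-70766380, with a fold of 4.83 and 20 fragments at its summit. A peak of WT library 1, chr14:70765681-70766532 with a fold of 5.36, lay on the same place, and WT library 2 had none, so it is not a WT region. The second WT BRG1 region of Xpo7, chr14:70713480-70714093, was weak, at 46.1, carried H3K27ac and was in no KO list. The strongest H3K27ac region of Xpo7, chr14:70713803-70714260 at 84.4, overlapped this second region. The widest was chr14:70720558-70721147, with percentiles of 99.1 and 35.4 in the 2 libraries. Hemogen regions next in strength were chr14:70707797-70708467 at 77.6 and chr14:70761727-70762253 at 57.9, and neither overlapped a BRG1 region.

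The uncalled strong regions were set beside all WT BRG1 regions of at least their strength. Of the 311 at least as strong as the Xpo7 region, 304 were called in a KO list (97.7%), so that it was 1 of 7 such regions in no KO list. Those with an H3K27ac region were called in 298 of 300 cases (99.3%) and those without in 6 of 11 (54.5%), and the Xpo7 region belongs to the 11. Of the 1244 regions at least as strong as the strongest at Foxo3, 1144 were called (92.0%), and 1104 of 1145 (96.4%) among those with H3K27ac, as that region has. Of the 3897 at least as strong as the strongest at Bnip3l, 3185 were called (81.7%), and 2940 of 3296 (89.2%) among those with H3K27ac, as that region has. Without H3K27ac the shares were 40 of 99 (40.4%) and 245 of 601 (40.8%). The strongest BRG1 region of each of the 3 genes was thus in no KO list, where most regions of at least that strength were in one. Each is by definition the weakest of its own comparison set. The called share fell with the minimum strength (97.7, 92.0 and 81.7%), so regions of just the same strength may be called less often. For Xpo7 the set without H3K27ac held 11 regions only.

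**Figure D4:**
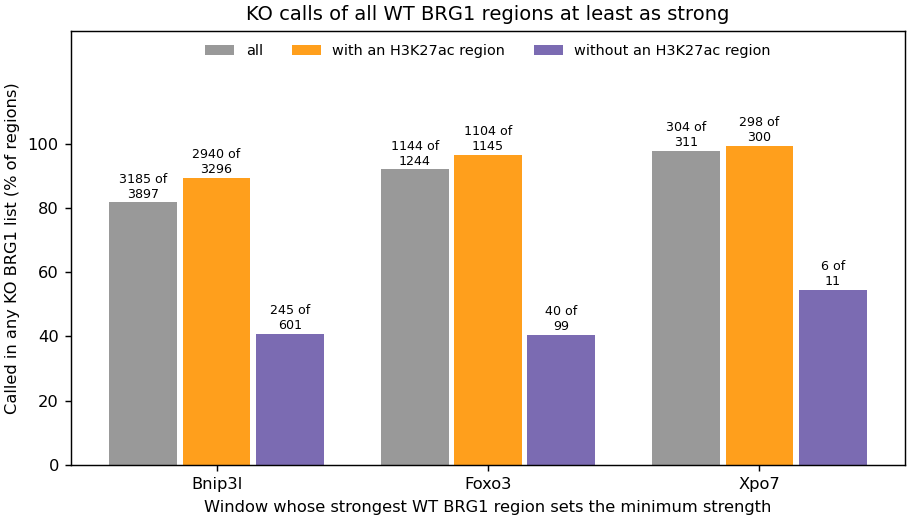
Percent of WT BRG1 regions called in any KO list (y axis) among all regions at least as strong as the strongest region of Bnip3l, Foxo3 and Xpo7 (x axis), for all such regions and for those with and without an overlapping H3K27ac region, with the counts above each bar. The 3 strongest regions themselves were in no KO list.

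Depth bears on what the KO lists could show. The lowest summit height called anywhere was 12 fragments in KO library 1 and 10 in KO library 2. At the depth of KO library 1, the WT heights of the Xpo7 region, 46 and 44 fragments, correspond to 18.7 and 17.2 fragments, and at that of KO library 2 to 15.7 and 14.5. In this scaling 8 of the 18 WT regions reached the lowest called height of KO library 1 from both WT libraries, and 1 of the 8 was called there, beside 38.7% of the 4598 regions that did so over the whole list. For KO library 2 the numbers were also 8 of 18, of which 2 were called, beside 54.4% over the whole list. Heights could be resolved in both WT libraries for 12688 of the 13213 regions, among them all 18. At Bnip3l 1 of 5 regions reached it, chr14:66999276-67001543, while the strongest did so from WT library 2 alone, with scaled heights between 7.30 and 14.8 fragments over the 5 regions at the depth of KO library 1. The remaining 3 regions of Bnip3l reached the lowest called height from neither WT library, so a lower BRG1 signal there may have gone undetected. Called regions did not all reach that height from both WT libraries. In KO library 1, 1778 of the 2433 called regions were counted as doing so, and in KO library 2, 2501 of the 3820. A region in no KO list is not thereby unbound. The lowest height is no fixed threshold, since a call also depends on the local background. KO library peaks called in these windows had 39 to 43 summit fragments in library 1 and 20 to 36 in library 2. The highest scaled WT heights of the 18 regions, 19.5 and 16.4 fragments, lay below all of these. Reaching the lowest called height thus does not show that a region could have been called here.

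Every KO peak of the windows lay on a WT BRG1 peak of some list. This held for 3 of 3 peaks in KO library 1, 4 of 4 in library 2 and 13 of 13 in the KO group list, where over the whole lists 98.0%, 95.9% and 89.1% did. All of these KO peaks also lay on hemogen regions of WT liver. Over the whole lists 3049 of 3205, 5157 of 5592 and 11744 of 13938 did, so this is common to most KO peaks. No place in the 3 windows had a BRG1 peak in KO liver alone.

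Within WT liver the question was how far hemogen, BRG1 and H3K27ac shared positions. Hemogen regions overlapped 17 of the 18 BRG1 regions (94.4%), beside 96.6% of all BRG1 regions, and H3K27ac regions overlapped 10 of 18 (55.6%), beside 63.9%. An H3K27ac peak of any single list lay on 16 of the 18, beside 90.2%. These shares are near those over all regions. At a minimum −log10 q of 5 in every list, H3K27ac overlapped 3 of the 10 remaining BRG1 regions (30%), beside 50.4% of all that remained. Hemogen libraries 1 and 2 held 7 and 7 peaks at Bnip3l, 20 and 24 at Foxo3 and 12 and 10 at Xpo7, at relative depths of 0.720 and 1.02. BRG1 regions overlapped 3 of 3 hemogen regions at Bnip3l, 5 of 10 at Foxo3 and 1 of 6 at Xpo7, 9 of 19 in all, beside 41.6%. An H3K27ac region overlapped 7 of the 19 hemogen regions, beside 39.8%.

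H3K27ac libraries 1 and 2, at relative depths of 0.791 and 0.843, held 3 and 4 peaks at Bnip3l, 41 and 31 at Foxo3 and 7 and 8 at Xpo7. They gave 25 regions in the windows, 3 at Bnip3l, 19 at Foxo3 and 3 at Xpo7. Hemogen overlapped 12 of the 25, beside 49.0% of all H3K27ac regions, and BRG1 overlapped 12, beside 37.2%. In the H3K27ac group list the density was 31.1 peaks per 100 kb at Bnip3l, 68.6 at Foxo3 and 14.2 at Xpo7, where the whole list had 6.35. Foxo3 thus had the densest H3K27ac of the 3 windows, and the lists of libraries 1 and 2 ran the same way, with 39.0 and 29.5 peaks per 100 kb at Foxo3 against 6.67 and 8.89 at Bnip3l and 5.83 and 6.67 at Xpo7. The windows were drawn around genes, where peaks are denser than over the whole genome, so the density of the whole list is no control for them.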

How the data were processed

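Chromatin immunoprecipitation sequencing was analysed from the authors' 12 liver peak lists, which have no header. Per the submitters' processing notes, MACS2 2.2.7.1, Picard 2.21.4, Bowtie2 2.3.5 and SAMtools 1.9 were used, in roles the notes do not state. No source used here gives the control of each call. The build is inferred as mm10 from contig names. The deposited lists give each peak a fold over background (a ratio), a −log10 p-value, a −log10 q-value and a summit offset. Peaks on the 19 autosomes and X were kept. An overlap of 1 bp counted as shared.

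Depth and summit heights were recovered by taking each p-value of the authors as the upper tail of a Poisson distribution. Each fold was taken as (height + 1)/(background + 1), and both steps assume how the caller works. The scale of each list was chosen to give whole fragments within 0.01. Only such heights were kept, so their wholeness is no check. Overlap and height recovery were tested on simulated data. Every WT BRG1 region, every KO library peak, the 3 strongest hemogen regions and the widest and strongest H3K27ac region per window were named by rule. The members, the windows and the lists of genes were chosen with earlier results of these data known. A mouse genome and annotation were not used here, so sequences, other pathway genes and cell type marker loci were not analysed. The input libraries and the 12 libraries of human K562 cells were not analysed here. Alternatives were the group lists, 50% overlap, each library left out, a −log10 q of at least 5, summits inside the window, lists of equal length, matched replicate numbers and other definitions of a KO call. Software was Matplotlib 3.10.9, SciPy 1.17.1, pandas 2.3.3 and NumPy 2.4.6 under Python 3.11.15.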

Additional observations from a re-analysis of the deposited data

How the results depend on the processing

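The difference in BRG1 peaks per library kept its direction, fewer in KO libraries, in the 9 alternatives run, although it shrank to -1.5 when the BRG1 lists were cut to equal length. Leaving out single libraries gave -30.5 to -24.5 and could not reverse the direction, since both KO counts lay below both WT counts. Summits inside the window and the replicate block left the counts unchanged. These settings are thus no check of the direction. The KO-called share of the WT regions was 5.56% when both KO libraries had to call, beside 12.1% of all. It was 0% (0 of 2 regions) with BRG1 lists of equal length and without the KO group list, where all regions gave 69.6%. These 2 were the strongest regions of Xpo7 and Foxo3, which were in no uncut KO list either. Cutting the KO lists can add no call, so the 0 of 2 is no new support. The KO-called share was 30% (3 of 10 regions) for peaks with a −log10 q of 5 or more, where all regions gave 38.6%. The share ran from 5.56 to 32.4% when single libraries were left out. The low value came without KO library 2, where the group list was also set aside, beside 18.4% of all regions. The high value, 11 of 34, counted peaks of WT library 2 alone. Its share over all such peaks was not computed, so 32.4% cannot be called low or high. At a minimum −log10 q of 5, hemogen overlapped 100% and H3K27ac 30% of the 10 remaining WT BRG1 regions. Over all regions at this setting H3K27ac overlapped 50.4%, and the hemogen share was not computed. The windows then held 10 hemogen and 9 H3K27ac regions. With WT lists of equal length there were 9 hemogen and 9 H3K27ac regions. Group lists held 60 hemogen, 103 H3K27ac, 43 WT BRG1 and 13 KO BRG1 peaks. Single libraries gave 39 to 41, 43 to 51, 28 to 34 and 3 to 4 of these, since a region then needs 1 library only. The 50% overlap was not run for the numbers of regions.

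Replicate numbers are shared by the titles of all groups, but nothing says that they pair the samples. With the replicate number as a block, 5 of 62 WT library peaks of the windows (8.06%) were called in the KO library of the same number. The same share over all WT library peaks was not computed, so 8.06% cannot be called low or high. The difference in peaks stayed at -27.5 with an exact sign-flip p of 0.5, the smallest that 2 pairs allow. Depth is a limit of the KO lists: a region absent from them may lie below what 0.406 and 0.342 of the WT depth can show.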

Other observations

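The 12 hemogen peaks of Xpo7 in library 1 and 10 in library 2 included a second cluster near the KO peak, where 3 hemogen regions, at chr14:70761727-70762253, chr14:70765680-70766380 and chr14:70766707-70767926, had strengths of 57.9, 45.6 and 27.4. No WT BRG1 or H3K27ac region overlapped these 3. A WT BRG1 peak of at least 1 list lay on each of them, and an H3K27ac peak of at least 1 list on the last 2, while no H3K27ac list had a peak on the first.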
